A study of Bos grunniens with 12 samples.

Results

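The ubiquitin-conjugating (E2) enzymes of the UBE2 family and the ubiquitin ligases (E3) named UBE3 were examined in yak testis. Members were the genes whose deposited symbol starts with UBE2 or UBE3, which gave 80 of the 20953 genes in the expression table under 24 symbols. Testes came from 6 yaks, 3 aged 1.5 years and 3 aged 5 years, and each testis gave an input library of fragmented poly(A) RNA and an IP library of the fragments bound by an antibody against m6A, a methylated form of adenosine in mRNA. The animals carried no further treatment, but per the record the younger testes were taken by castration and the older ones after slaughter, so age and way of collection cannot be told apart. Expression was read as FPKM in the 6 input libraries, a value that corrects the fragments of a gene for its length and for the library's mapped fragments, and m6A was read from a deposited list of peaks that differed between the ages. The FPKM table does not give the fragments behind a value, so depth per gene is unknown.

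Ubiquitin is a small protein that cells attach to other proteins, most often to send them to the proteasome. An E1 enzyme activates it, an E2 enzyme carries it, and an E3 ligase selects the protein that receives it. Some E2 enzymes carry related modifiers such as SUMO and NEDD8 instead. Testis relies on this system when histones are exchanged for protamines and when cytoplasm and organelles are removed from the maturing spermatid. Ligases of the HECT type, to which UBE3A, UBE3B and UBE3C belong, take ubiquitin onto themselves before passing it on.

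The age of a library was taken from its title, and the growth notes give the same ages, whereas another label of each sample, its developmental stage, says the reverse. The spermatid gene TNP1, a transition protein of chromatin packing, was at 883, 852 and 879 FPKM in the libraries labelled 1.5 years and at 201, 641 and 550 FPKM in those labelled 5 years. TNP1 was detected in all 6 libraries and was higher in each library labelled 1.5 years than in any labelled 5 years. SOX9, a Sertoli cell transcription factor, was at 7.25, 8.38 and 6.80 FPKM at 1.5 years and at 13.8, 8.73 and 12.2 FPKM at 5 years, so the groups did not overlap in the other direction. All directions below rest on the titles, and an exchange of the labels was not tested. The 5-year libraries were not alike. Replicate 1 had a correlation of log2(FPKM + 0.1) of 0.817 to 0.837 with the 1.5-year libraries, against 0.912 to 0.948 for replicates 2 and 3. Within the 5-year group, replicate 1 correlated at 0.868 with replicate 2 and at 0.923 with replicate 3, and replicates 2 and 3 at 0.935. Replicate 2 was closer to the 1.5-year libraries, at 0.942 to 0.948, than to either library of its own age.

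The member symbols did not each stand for 1 gene. Only 14 of the 24 symbols stood on 1 identifier, and UBE2M stood on 44. The first identifier of a symbol, which is its lowest number in the table, had a ubiquitin, NEDD8 transferase or SUMO transferase term in the deposited annotation for 14 of 24 symbols, and none of the 56 further identifiers had one. Of the 43 further UBE2M identifiers, 15 had a DNA binding term, and further UBE2O, UBE2T and UBE2D1 identifiers had terms of other enzymes. The 24 first identifiers are called the enzymes here, and the further identifiers are described apart, under the deposited symbol and without another name.

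**Figure D1:**
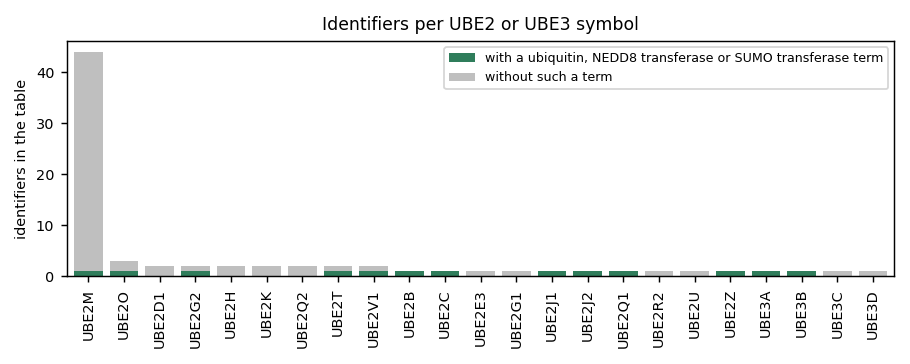
Identifiers in the expression table for UBE2 and UBE3 symbols (count on the vertical axis), with green for identifiers that had a ubiquitin, NEDD8 transferase or SUMO transferase term and grey for the others. UBE2M stands on 44 identifiers, 1 of which had such a term.

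A further limit concerns the enzymes themselves. The deposited terms of UBE2E3, UBE2K, UBE2H, UBE2D1, UBE2G1, UBE3D and UBE2U were those of a reverse transcriptase, as for 3523 genes in the table, so these 7 were identified by their deposited symbol alone. UBE2R2, UBE3C and UBE2Q2 carried only the terms nucleus and cytoplasm. No gene stood under the symbols UBE2A or UBE2N.

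Among the enzymes, UBE2R2, UBE2J1 and UBE2V1 had the highest levels, with means over the 6 input libraries of 38.1, 35.6 and 33.3 FPKM. UBE2Q1 followed at 22.6 FPKM and UBE2K at 20.5 FPKM. The 3 leading enzymes stood above 96.9%, 97.2% and 96.5% of the genes in the table in the order UBE2J1, UBE2R2 and UBE2V1. Neighbours in the order of levels overlapped in their range over libraries, except for 3 steps. UBE3A, at 10.6 FPKM, did not overlap UBE2G1 above it, and UBE2T, at 2.42 FPKM, did not overlap UBE2O above it. The third step was the lowest enzyme, UBE2C, at 0.362 FPKM, which did not overlap UBE2D1.

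**Figure D2:**
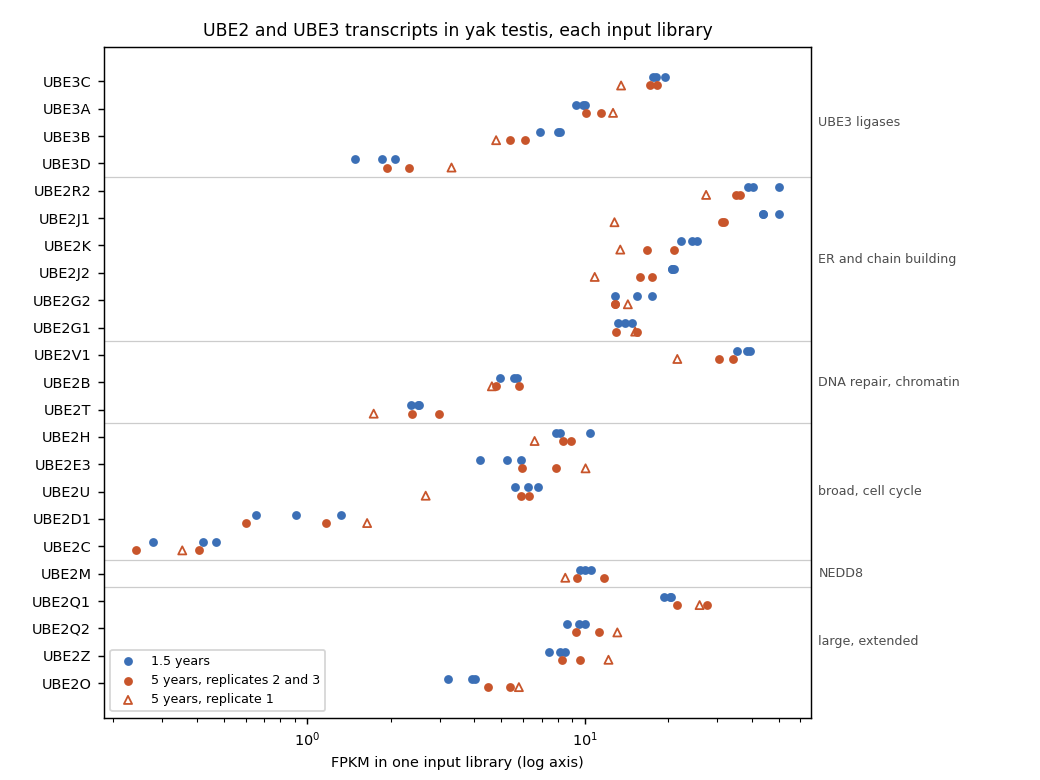
FPKM of the enzymes in each of the 6 input libraries (horizontal log axis), grouped by role, with blue points for 1.5 years, filled orange points for replicates 2 and 3 at 5 years and open triangles for replicate 1 at 5 years. UBE2J1 spans 12.8 to 50.1 FPKM, and its triangle lies well to the left of its other points.

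Comparing the ages across 12437 genes with limma, 2 enzymes rose and 4 fell at 5 years at an unadjusted p under 0.05, out of 23 tested. UBE2E3 and UBE2O rose, and UBE2J1, UBE2J2, UBE2K and UBE3B fell. These 6 enzymes are 26.1% of those tested, and the same rule called 25.1% of all genes, 14.2% as higher and 10.9% as lower, so the share was near that of the whole table. With p-values adjusted by Benjamini-Hochberg in limma, 0 enzymes passed 0.05, the smallest adjusted p was 0.154, and 4 genes (0.0322%) passed in the whole table. The median log2 fold change was -0.09 over the enzymes and 0.04 over all genes, where a positive value is higher at 5 years. Over the 80 genes with a member symbol, 48 were tested, of which 3 rose and 7 fell. "Rose" and "fell" refer below to the unadjusted rule.

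The libraries of both ages did not overlap for 10 enzymes, 4 of them higher and 6 lower at 5 years. In the whole table, 33.7% of genes did not overlap, with 19.8% higher and 13.9% lower. Replicate 1 at 5 years held the lowest value of 12 enzymes and the highest of 8. The FPKM summed over the enzymes was 329, 314 and 328 at 1.5 years and 250, 293 and 297 at 5 years. Without replicate 1 at 5 years, 0 enzymes rose and 4 fell, and the 4 were the ones that fell with it, while 18.5% of all genes passed the unadjusted rule. Without replicate 2 at 5 years, 6 rose and 5 fell, beside 40.1% of all genes, and UBE2E3 and UBE2K had adjusted p-values of 0.0429 and 0.0391 in limma, in a fit where 19.3% of all genes passed 0.05 after adjustment. The calls also moved with the other libraries. The enzymes that rose and fell numbered 0 and 3 without replicate 3 at 5 years (15.9% of all genes passed). They numbered 3 and 1, 1 and 0, and 0 and 1 without replicates 1, 2 and 3 at 1.5 years (14.2%, 16.8% and 13.4% of all genes).

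**Figure D3:**
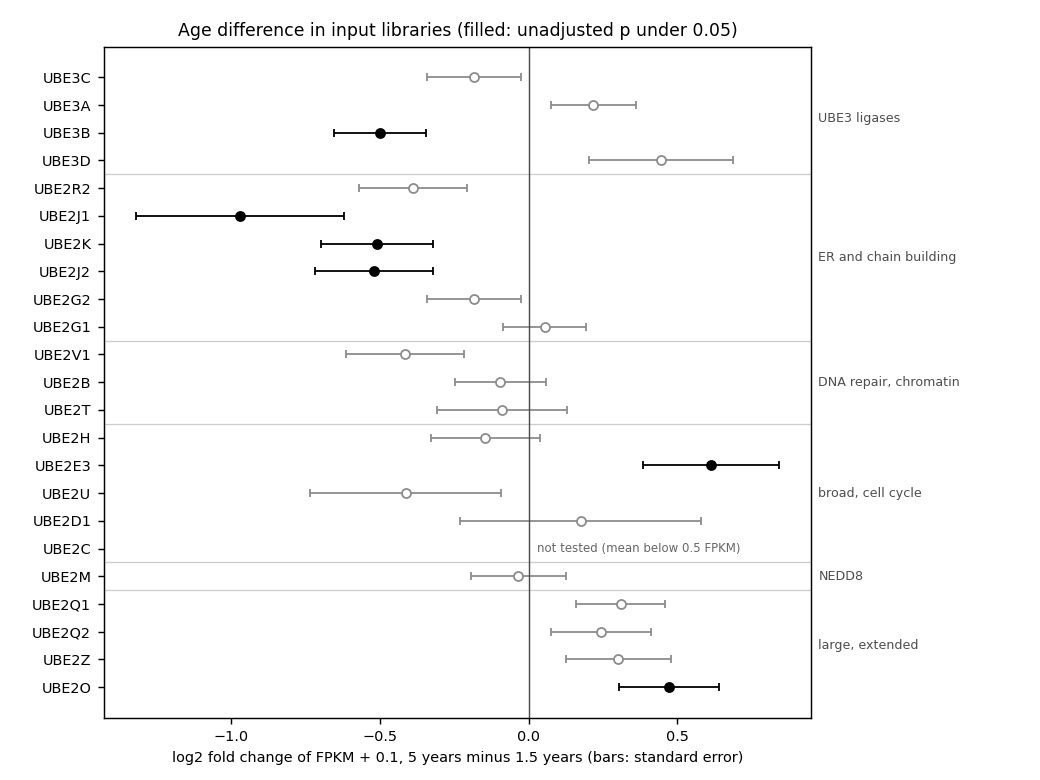
Log2 fold change of FPKM + 0.1 for the enzymes (horizontal axis, 5 years minus 1.5 years), with bars for the standard error from limma, grouped by role. Filled points are the 6 enzymes with an unadjusted p under 0.05, of which 4 lie left of 0 and 2 lie right of it, and UBE2C was too low to be tested.

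UBE3A, also called E6AP, is the founding HECT ligase and is known for its loss in Angelman syndrome. It was at 9.31, 9.88 and 10.1 FPKM at 1.5 years and at 12.7, 10.1 and 11.4 FPKM at 5 years. Its lowest 5-year library lay just above its highest 1.5-year library. The log2 fold change was 0.22 (SE 0.14), with an unadjusted p of 0.168 and an adjusted p of 0.349 in limma, so UBE3A did not pass.

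UBE3B, a HECT ligase whose loss causes a syndrome of intellectual disability, was at 8.04, 8.18 and 6.90 FPKM at 1.5 years and at 4.80, 5.39 and 6.12 FPKM at 5 years. Every 5-year library lay below every 1.5-year library. The log2 fold change was -0.50 (SE 0.16, unadjusted p 0.0142, adjusted p 0.154 in limma). The unadjusted p was 0.0529 without replicate 1 and 0.0565 without replicate 2 of the 1.5-year group. The ratio of UBE3B to UBE3A, which does not depend on library scaling, was 0.863, 0.828 and 0.686 at 1.5 years and 0.379, 0.533 and 0.536 at 5 years. The difference of -0.73 on the log2 scale had a two-sided exact permutation p of 0.1, the smallest that 3 against 3 libraries allow.

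UBE3C, a ligase that works at the proteasome, was at 17.6, 18.1 and 19.4 FPKM at 1.5 years and at 13.5, 18.2 and 17.1 FPKM at 5 years, and the groups overlapped. UBE3D, the fourth gene of the name, was at 1.48, 1.86 and 2.06 FPKM at 1.5 years and at 3.31, 1.94 and 2.33 FPKM at 5 years, with overlap as well. Their log2 fold changes were -0.18 (SE 0.16, unadjusted p 0.285) and 0.45 (SE 0.24, unadjusted p 0.107) in limma. Of the 4 UBE3 ligases, 1 fell and 3 did not pass, and 10.9% of all genes tested fell.

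Of the 6 E2 enzymes of endoplasmic reticulum quality control and of chain building, 3 fell and 3 did not pass, with a median log2 fold change of -0.45, and 10.9% of all genes tested fell. The roles were grouped by hand, and no difference between the groups was tested. UBE2J1 is anchored in the endoplasmic reticulum membrane, where misfolded proteins are marked for export and destruction, and male mice without it are infertile. It was at 50.1, 43.9 and 43.8 FPKM at 1.5 years and at 12.8, 31.9 and 31.2 FPKM at 5 years. The groups were separate, and replicate 1 at 5 years was by far the lowest. UBE2J1 fell by 0.97 on the log2 scale (SE 0.35, unadjusted p 0.0265, adjusted p 0.168 in limma), the largest difference among the enzymes tested. Without replicate 1 at 5 years the log2 fold change was -0.54, and the unadjusted p rose to 0.0766, 0.0551 and 0.0560 when replicate 1, 2 or 3 at 1.5 years was left out.

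Its relative UBE2J2, in the same membrane, was at 20.7, 21.0 and 20.7 FPKM at 1.5 years and at 10.9, 17.6 and 15.9 FPKM at 5 years. All 5-year libraries lay below the tightly grouped 1.5-year libraries. The log2 fold change was -0.52 (SE 0.20, unadjusted p 0.0336, adjusted p 0.176 in limma) and -0.31 without replicate 1 at 5 years. Leaving out replicate 1, 2 or 3 at 1.5 years took the unadjusted p to 0.0771, 0.0837 and 0.0789, and quantile normalization took it to 0.0560. The ratio of UBE2J1 to UBE2J2 was 2.42, 2.09 and 2.12 at 1.5 years and 1.18, 1.81 and 1.96 at 5 years, so UBE2J1 differed by more than UBE2J2 between these libraries. That log2 difference of -0.45 had a two-sided exact permutation p of 0.1, again the smallest possible.

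UBE2K, which builds ubiquitin chains linked through lysine 48, was at 22.2, 25.4 and 24.3 FPKM at 1.5 years and at 13.4, 20.9 and 16.8 FPKM at 5 years. The groups did not overlap, and the log2 fold change was -0.51 (SE 0.19, unadjusted p 0.0295, adjusted p 0.171 in limma). The unadjusted p was 0.0912 and 0.0788 without replicate 2 or 3 at 1.5 years, and 0.0706 without replicate 3 at 5 years. It was also over 0.05 with quantile normalization (0.0577) and with equal FPKM sums (0.0512). UBE2R2, which extends chains with the cullin-RING ligases, was at 38.8, 40.3 and 50.2 FPKM at 1.5 years and at 27.4, 35.3 and 36.3 FPKM at 5 years. Its groups did not overlap either, but the log2 fold change of -0.39 (SE 0.18) had an unadjusted p of 0.0692 and did not pass. UBE2G1 and UBE2G2, a pair of related chain-building enzymes, overlapped between the ages, with log2 fold changes of 0.05 and -0.18.

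**Figure D4:**
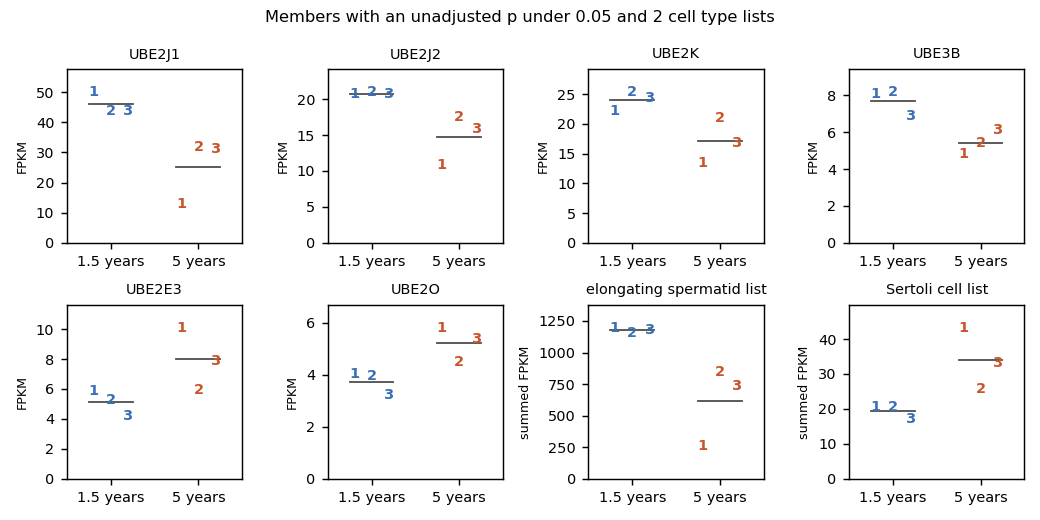
FPKM of the 6 enzymes with an unadjusted p under 0.05, and FPKM summed over the elongating spermatid and Sertoli cell lists, by age (vertical axes start at 0). Digits are replicate numbers and lines are group means. Replicate 1 at 5 years is lowest for UBE2J1, at 12.8 FPKM, and for the spermatid list, at 262 FPKM, and highest for UBE2E3, at 10.1 FPKM, and for the Sertoli list, at 43.2 FPKM.

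Cell type genes moved between the same libraries. Under the unadjusted rule, 14.2% of all genes rose and 10.9% fell. Several lists were only partly present, including 4 of 8 elongating spermatid, 5 of 7 round spermatid, 5 of 8 Sertoli and 2 of 6 Leydig genes. Over 4 tested genes of elongating spermatids, all 4 fell, and the summed FPKM was 1154 to 1195 at 1.5 years and 262, 849 and 731 at 5 years. Of 5 round spermatid genes 3 fell, with sums of 89.8 to 129 at 1.5 years and 25.5, 100.4 and 37.4 at 5 years. All 5 tested Sertoli cell genes rose, with sums of 17.0 to 20.5 at 1.5 years and 43.2, 25.6 and 33.1 at 5 years, as did 5 of 6 peritubular and stromal genes, with sums of 23.8 to 26.6 and 56.9, 34.7 and 47.1. Of 9 spermatocyte genes, 0 passed at an unadjusted p under 0.05, with sums of 122, 129 and 135 at 1.5 years and 103, 129 and 120 at 5 years and a median log2 fold change of 0.04. One of them, SYCP3, a protein of the meiotic chromosome axis, was at 5.61, 6.95 and 7.70 FPKM at 1.5 years and at 10.2, 7.62 and 7.52 FPKM at 5 years. Of 6 spermatogonial genes 1 rose, with sums of 58.2 to 66.4 at 1.5 years and 139, 71.0 and 83.9 at 5 years. In the remaining lists, 1 of 2 Leydig cell genes fell, 1 of 5 macrophage genes rose and 2 fell, 0 of 4 endothelial genes passed, and the 1 erythroid gene with a value was listed at 0. These are bulk samples, in which fewer cells of a type and less RNA per cell cannot be told apart, and the part of cell makeup in the differences of the enzymes was not tested.

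Among the E2 enzymes with many ligase partners or a role in the cell cycle, 1 of 4 tested rose, beside 14.2% of all genes. UBE2E3 was at 5.88, 5.25 and 4.20 FPKM at 1.5 years and at 10.1, 5.94 and 7.89 FPKM at 5 years. Replicate 2 at 5 years lay only just above the highest 1.5-year library. The log2 fold change was 0.61 (SE 0.23, unadjusted p 0.0312, adjusted p 0.172 in limma). Without replicate 1 at 5 years it was 0.43 (unadjusted p 0.0762), and the unadjusted p was also over 0.05 without replicate 3 at 5 years (0.0769) and without replicate 2 (0.0630) or 3 (0.110) at 1.5 years.

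UBE2C, the E2 of the anaphase-promoting complex in dividing cells, was at 0.420, 0.279 and 0.470 FPKM at 1.5 years and at 0.354, 0.407 and 0.242 FPKM at 5 years, below the mean of 0.5 FPKM needed for the test. UBE2D1, which serves many ligases, was the next lowest, with a log2 fold change of 0.18 and overlapping groups. UBE2H, the E2 of the CTLH ligase complex, also overlapped, at a log2 fold change of -0.14. UBE2U was at 6.81, 5.62 and 6.25 FPKM at 1.5 years and at 2.67, 6.29 and 5.90 FPKM at 5 years. The log2 fold change of -0.41 for UBE2U (SE 0.32, unadjusted p 0.237 in limma) rested on replicate 1, since the other two 5-year libraries lay within the 1.5-year range, and was -0.03 without it.

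None of the 3 enzymes grouped by hand under DNA repair and chromatin passed, where 25.1% of all genes tested did. Among them, UBE2V1 could also have been grouped with the chain-building enzymes. UBE2B (RAD6B) ubiquitinates histones and is needed for sperm formation in mice. It was at 5.55, 4.96 and 5.70 FPKM at 1.5 years and at 4.63, 5.80 and 4.79 FPKM at 5 years, with overlapping groups and a log2 fold change of -0.09 (SE 0.15, unadjusted p 0.556 in limma) that turned to 0.03 when the libraries were scaled to equal FPKM sums. UBE2V1 lacks the catalytic cysteine and helps its partner E2 build chains linked through lysine 63. It was at 39.4, 35.5 and 38.5 FPKM at 1.5 years and at 21.6, 34.4 and 30.5 FPKM at 5 years, without overlap, and had a log2 fold change of -0.41 (SE 0.20, unadjusted p 0.0744). UBE2T, the E2 of the Fanconi anaemia pathway, had a log2 fold change of -0.09 and overlapping groups.

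UBE2M, which carries NEDD8 to the cullins, was at 10.5, 9.62 and 10.0 FPKM at 1.5 years and at 8.52, 9.42 and 11.7 FPKM at 5 years. The groups overlapped, and the log2 fold change of -0.03 (SE 0.16, unadjusted p 0.839 in limma) did not pass and changed sign with other scalings of the libraries.

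The 4 large or extended E2 enzymes all had positive log2 fold changes, with a median of 0.31, and 1 of them rose. Over all genes tested, the median was 0.04 and 14.2% rose. UBE2O acts as E2 and E3 in one protein and is known for clearing proteins from maturing red cells. It was at 4.04, 3.94 and 3.21 FPKM at 1.5 years and at 5.79, 4.49 and 5.36 FPKM at 5 years, with every 5-year library above every 1.5-year library. The log2 fold change was 0.47 (SE 0.17, unadjusted p 0.0258, adjusted p 0.168 in limma). The unadjusted p was 0.0998 without replicate 3 at 1.5 years, and 0.0584 and 0.0760 without replicates 1 and 3 at 5 years.

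UBE2Z, an E2 that receives ubiquitin from UBA6 rather than UBA1, was at 8.13, 8.48 and 7.43 FPKM at 1.5 years and at 12.2, 8.27 and 9.59 FPKM at 5 years. The groups overlapped through replicate 2 at 5 years, and the log2 fold change of 0.30 (SE 0.18, unadjusted p 0.130 in limma) did not pass. UBE2Q1 was at 20.6, 20.3 and 19.3 FPKM at 1.5 years and at 26.0, 21.5 and 27.7 FPKM at 5 years, without overlap (log2 fold change 0.31, SE 0.15, unadjusted p 0.0755). UBE2Q2 overlapped, with a log2 fold change of 0.24. The ratio of UBE2Q1 to UBE2Q2 lay between 1.98 and 2.45 in all 6 libraries.

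Differential m6A peaks stood on 3 of the 24 enzymes (12.5%), namely UBE3A, UBE2O and UBE2Z, against 7.31% of all first identifiers in the table and 9.29% of all genes tested. Such a peak is a stretch of transcript where the authors' program found the IP signal over input to differ between the ages. The deposited list gives neither a direction nor a p-value per peak and no value per animal, so no test was made. The width of a peak is its length on the genome, introns included, and the median over all 1438 peaks was 398 bp. Coordinates are those of the yak assembly LU_Bosgru_v3.0.

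The UBE3A peak lay at chr17:662246-665099, on a gene of the minus strand, and was 2854 bp wide. The annotation put it in exon 8 of 12, between 48964 and 51817 bp from the gene start. UBE2Z had a peak of 2279 bp at chr19:29123189-29125467 in exon 1 of 7, on the plus strand and from 487 bp after the gene start. UBE2O, on the minus strand, had a pair of peaks. One of 300 bp at chr19:9327870-9328169 lay in exon 1 of 18, from 50 bp after the gene start, and one of 824 bp at chr19:9277699-9278522 in exon 11. All 3 enzymes with a peak had a positive log2 fold change in the input libraries, but UBE2O alone passed the unadjusted rule. Over all genes tested, the median log2 fold change was 0.04 and 14.2% rose. A link between peaks and levels was not tested.

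**Figure D5:**
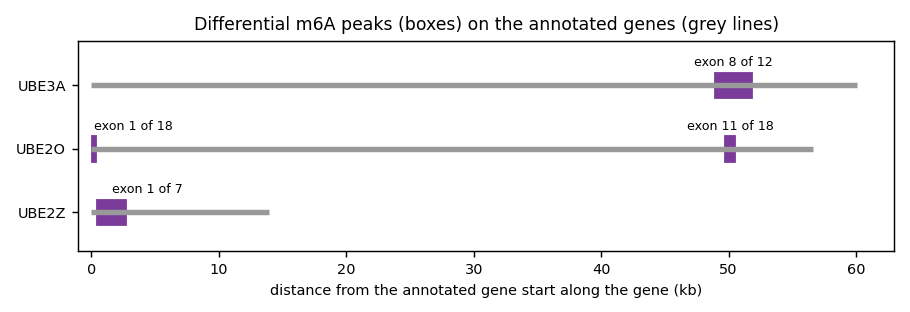
Differential m6A peaks (boxes) along UBE3A, UBE2O and UBE2Z (grey lines, annotated gene length), with distance from the annotated gene start in kb on the horizontal axis. The UBE3A peak and one UBE2O peak lie far inside the gene, while the UBE2Z peak and the other UBE2O peak lie in exon 1.

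Including the further identifiers, 8 of the 80 genes with a member symbol (10.0%) carried 9 peaks, against 5.63% of all genes in the table. The other 5 peaks stood on 5 further UBE2M identifiers between 55932228 and 56608028 on chromosome 20. Their widths were 149, 600, 200, 199 and 39134 bp, and the peak of 600 bp was annotated to the 3′ UTR. In the input libraries these 5 genes had log2 fold changes of -0.20 to 0.38, and none passed the unadjusted rule. At 1.5 and then 5 years, ENSBGRG00000015048 was at 1.51, 2.62 and 1.74 FPKM and at 2.35, 1.82 and 1.95 FPKM. ENSBGRG00000015081, with the 3′ UTR peak, was at 6.46, 5.35 and 6.35 FPKM and at 4.16, 6.30 and 5.41 FPKM. The ages overlapped for both. ENSBGRG00000015660 was at 2.01, 1.94 and 1.51 FPKM and at 2.91, 1.90 and 2.42 FPKM. ENSBGRG00000015904 was at 2.16, 2.49 and 2.49 FPKM and at 3.43, 2.45 and 3.33 FPKM, and both overlapped through replicate 2 at 5 years. ENSBGRG00000015930, with the peak of 39134 bp, was at 2.09, 1.99 and 2.02 FPKM and at 2.23, 2.05 and 2.62 FPKM, and overlapped through the same library.

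Of the 56 further identifiers, 25 were tested, and 1 rose and 3 fell, or 16.0% of those tested beside 25.1% of all genes. Another 10 were listed at 0 in all 6 libraries. ENSBGRG00000003997, deposited as UBE2V1 and annotated to the endoplasmic reticulum membrane, was at 12.0, 7.82 and 9.20 FPKM at 1.5 years and at 3.10, 6.78 and 6.45 FPKM at 5 years, without overlap (log2 fold change -0.88, SE 0.32, unadjusted p 0.0290). Its log2 fold change was -0.52 without replicate 1 at 5 years, and its unadjusted p was 0.101 and 0.0612 without replicate 1 or 3 at 1.5 years. ENSBGRG00000014568, deposited as UBE2M with a DNA binding term, was at 4.05, 3.93 and 4.59 FPKM at 1.5 years and at 2.53, 3.59 and 3.07 FPKM at 5 years, also without overlap (log2 fold change -0.45, SE 0.18, unadjusted p 0.0368). ENSBGRG00000000186, deposited as UBE2G2 and annotated as a protein tag of sumoylation, was at 4.21, 2.89 and 2.76 FPKM at 1.5 years and at 4.46, 4.35 and 5.41 FPKM at 5 years, with all 5-year libraries higher (log2 fold change 0.53, SE 0.20, unadjusted p 0.0340). Of the 6 libraries, leaving out replicate 2 at 5 years alone kept the unadjusted p of the UBE2M gene under 0.05, with values of 0.0638 to 0.123 for the other 5. The unadjusted p of the UBE2G2 gene was 0.109 and 0.119 without replicates 2 and 3 at 1.5 years, and 0.117 without replicate 3 at 5 years. The most abundant further identifier, ENSBGRG00000015704, deposited as UBE2M and without annotation terms, was at 20.9, 22.4 and 18.6 FPKM at 1.5 years and at 22.0, 25.2 and 27.7 FPKM at 5 years. Its groups overlapped through replicate 1 at 5 years, and its log2 fold change of 0.27 (SE 0.15, unadjusted p 0.119 in limma) did not pass. A further UBE2M gene, ENSBGRG00000015488, was listed at 0 in 5 libraries and at 9.16 FPKM in replicate 2 at 5 years.

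The rest of the ubiquitin pathway was read from a list of 80 other genes, of which 61 stood in the table and 60 were tested. Of these, 3 rose, 5 fell and 52 did not pass, where 14.2% of all genes rose and 10.9% fell, with a median log2 fold change of -0.03. Without replicate 2 at 5 years 9 rose and 11 fell, in a fit that called 40.1% of all genes. Without replicate 1 at 1.5 years 0 fell, and without replicate 3 at 1.5 years 1 rose and 1 fell, in fits that called 14.2% and 13.4%. The ubiquitin gene UBB was at 266, 271 and 289 FPKM at 1.5 years and at 203, 178 and 185 FPKM at 5 years, and fell by 0.55 on the log2 scale (SE 0.17, unadjusted p 0.0137, adjusted p 0.154 in limma). All 3 libraries at 5 years were lower, and replicate 1 was not the lowest of them. The E1 enzymes UBA1 and UBA6 had log2 fold changes of 0.22 and -0.25, with overlapping groups.

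Outside the UBE names, CDC34, the E2 of the SCF ligases and a close relative of UBE2R2, had the largest fall in the list. It was at 22.2, 17.9 and 17.2 FPKM at 1.5 years and at 5.27, 13.1 and 14.0 FPKM at 5 years (log2 fold change -0.93, SE 0.37, unadjusted p 0.0376, adjusted p 0.182 in limma). The HECT ligase WWP2 followed, with a log2 fold change of -0.60 (SE 0.21, unadjusted p 0.0226). The largest rises were in HUWE1, a HECT ligase with 2 differential peaks, at 0.65 (SE 0.20, unadjusted p 0.0141), and in MDM2, the ligase of p53, at 0.62 (SE 0.17, unadjusted p 0.00708). The groups of CDC34, WWP2, HUWE1 and MDM2 did not overlap, as for 33.7% of all genes tested, and these genes were picked for their size and unadjusted p. Replicate 1 at 5 years held the lowest value of CDC34 and WWP2 and the highest of HUWE1 and MDM2.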

How the data were processed

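FPKM values per gene in the 6 input libraries were deposited by the authors, who trimmed reads with Trimmomatic and aligned them with HISAT2 2.0.4 to LU_Bosgru_v3.0 (tools and version from the submitters' processing notes). The program that computed FPKM is not given in the sources used here. The authors called m6A peaks with MeTDiff in single samples against their own input, compared the ages with it and annotated the peaks with ChIPseeker. Whether that comparison pooled the animals is not given in the sources used here. Positions and widths in other units (bp) were used as deposited. The IP libraries have no gene values here, and the 2 peak lists of single groups were not used.

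Groups were taken from the ages in the sample titles. The 3 samples of a group were taken as separate animals, since the titles number them and the authors report 3 yaks of each age. The ages were compared in the input libraries on log2(FPKM + 0.1) by two-sided limma tests (version 3.58.1, R 4.3.3, eBayes with trend), after removal of genes whose mean FPKM was under 0.5, and p-values were adjusted over all genes tested. A fold change on this scale understates the change of low genes. The fit was tested on simulated data. Counts and ratios were made in Python 3.11.15 (scipy 1.17.1, numpy 2.4.6, pandas 2.3.3) and plots in matplotlib 3.10.9. Marker and pathway lists were read at the first identifier of each symbol.

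The members, lists and tests were chosen with earlier results of these data known, and the reading by first identifiers was chosen after the annotation terms had been seen. Values per library were given for UBE3 genes, members with a peak, members with an unadjusted p under 0.05 and no overlap, the 5 highest members and UBE2B, UBE2C and UBE2J1, and from the pathway list for UBB and the largest fall. Some genes that this rule selects are counted but not reported here, in text or plots. UBE2M, UBE2U and the UBE2M gene seen in 1 library were added after their values were seen. The lists covered spermatogonia, spermatocytes, round and elongating spermatids, Sertoli, Leydig, peritubular and stromal, macrophage, endothelial and erythroid genes. Alternatives were other pseudocounts, filters, scalings, eBayes forms, library weights, thresholds and peak widths, a replicate block and each library left out.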

Additional observations from a re-analysis of the deposited data

How the results depend on the processing

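Of 432 alternative values for 27 single genes, 406 kept their sign and their side of an adjusted p of 0.05 in limma, 14 passed it and 12 changed sign. The smallest adjusted p of the member genes in the main fit was 0.154, so keeping that side does not speak for the unadjusted calls. Array weights gave 12 of the 14, in a fit that called 35.9% of all genes at an adjusted p under 0.05. Their estimation stopped before converging and gave replicate 3 at 5 years a weight of 4.81. The other 5-year libraries had weights of 0.226 and 0.365. UBE2B changed sign with equal FPKM sums (0.031), UBE2M with quantile normalization (0.0116), equal sums (0.0928) and array weights (0.18), UBE2G1 with median scaling (-0.0009) and array weights (-0.0817), and UBE2T with equal sums (0.0333) and array weights (0.21). With 1 library left out, UBE2D1 lay between -0.12 and 0.53, UBE2M between -0.163 and 0.0666 and UBE2T between -0.265 and 0.108. Equal sums moved the median of all genes from 0.04 to 0.17. Of 17 settings with the main one, an unadjusted p under 0.05 in limma held in 12 for UBE2K and for UBE2J2. It held in 13 for UBE2E3 and for UBE2O, in 14 for UBE2J1 and in 15 for UBE3B.

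Unless another rule is named, the counts of higher and lower genes below use an unadjusted p under 0.05. That rule called 25.1% of all genes in the main fit. It called 23.7% with quantile normalization, 25.2% with median scaling, 27.9% with equal sums and 48.1% with array weights. It called 20.2% with all genes above 0 and 13.4% to 40.1% with 1 library left out, and 33.7% did not overlap. For all member symbols, the 3 higher became 5 with quantile normalization, 7 with equal sums, 18 with array weights and 5 by non-overlap, and 0 to 12 with 1 library left out. The 7 lower became 11 with all genes above 0, 4 at first identifiers and 2 to 8 with 1 library left out. For the enzymes, the 2 higher became 4 with equal sums, 8 with array weights and 4 by non-overlap, and 0 to 6 with 1 library left out, while the 4 lower became 2 with quantile normalization and 0 to 5 with 1 library left out. For the pathway list, the 3 higher became 8 with equal sums, 13 with array weights and 9 by non-overlap (1 to 9 with 1 library left out), and the 5 lower became 2 with quantile normalization, 8 with median scaling, 3 with equal sums, 12 with array weights and 10 by non-overlap (0 to 11). With the other settings as in the report, each of these counts was 0 at an adjusted p under 0.05. Under that threshold, array weights gave 3 enzymes higher and 5 lower, beside 35.9% of all genes. The fit without replicate 2 at 5 years gave 1 and 1, beside 19.3%. The 8 member genes with a peak became 5 for peaks of at most 1000 bp, 4 per symbol and 3 at first identifiers. The cause of these shifts was not tested.

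Deviations from the group mean had correlations of -0.02, -0.09 and 0.01 between same-numbered animals, and of -0.13 to 0.14 between the others. With 3 libraries per age, these values cannot tell whether the numbers pair the samples. With a replicate block, in a fit that called 20.6% of all genes at an unadjusted p under 0.05, 1 member symbol gene was higher and 5 were lower. Of the enzymes, 1 was higher and 3 fell, namely UBE2K, UBE2J1 and UBE3B. Of the pathway genes, 2 were higher and 1 was lower.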

Other observations

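The annotation term for ubiquitin conjugating enzyme activity stood on 23 genes, of which 10 had a UBE symbol and 13 had the symbol of an unrelated gene. Of these 13, 6 were tested between the ages. Of the 6, 0 passed in limma at an unadjusted p under 0.05 or after adjustment, beside 25.1% and 0.0322% of all genes. A pair of them were as abundant as the highest enzymes of the report. The gene deposited as SHISA7 (ENSBGRG00000023339) was at 47.4, 40.5 and 42.6 FPKM at 1.5 years and at 32.5, 42.8 and 37.8 FPKM at 5 years, with overlapping groups. The gene deposited as SMIM33 (ENSBGRG00000012335) was at 37.5, 35.9 and 36.1 FPKM at 1.5 years and at 32.6, 36.6 and 39.2 FPKM at 5 years, and it carried 1 differential m6A peak. A selection by symbol does not reach these genes, and they are given no enzyme name here.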
